A study of Mus musculus with 4 samples.

Results

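The clustered protocadherins are neuronal surface adhesion proteins encoded by the alpha, beta and gamma gene clusters, which lie side by side on mouse chromosome 18. They were taken here as every gene whose name in the deposited count table marks it as a member of one of the clusters. The rule found 58 of 55471 genes, of which 14 were alpha, 22 beta and 22 gamma. RNA had been sequenced from retinal amacrine cells, which are mostly inhibitory interneurons, taken from C57BL6 mice at postnatal days 6 to 7. All animals carried Gbx2-CreERT2-IRES-EGFP, in which the Gbx2 locus drives an inducible Cre recombinase and the green protein EGFP, and Ai9, a reporter that makes red tdTomato wherever Cre has acted, also in cells that have since stopped using Gbx2. The red cells were split by flow cytometry into a GFP-negative and a GFP-positive fraction, with 750 to 2500 sorted cells behind a sample. Replicates 2 and 6 of the GFP-negative and replicates 2 and 3 of the GFP-positive fraction were analysed, and all values below are for these 4 libraries, with n = 2 per fraction. The series text names 4 biological replicates from 3 litters and plans a sample of each fraction per animal, but does not say whether replicate 2 of both fractions came from the same animal. When Cre was induced is not stated in the labels.

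In the alpha and gamma clusters, each isoform begins with its own large variable exon, which encodes the extracellular, transmembrane and part of the intracellular protein, and is spliced to constant exons that all isoforms of the cluster share. Beta genes have no shared constant exons. A neuron switches on a few of the alternate isoforms, apparently at random, through promoter choice that depends on CTCF, cohesin and DNA methylation, while the C-type isoforms at the 3′ end of the alpha and gamma clusters are used more uniformly. The proteins bind matching isoforms on other membranes, and in the retina the gamma cluster is known for the self-avoidance of starburst amacrine dendrites and for the survival of inner retinal interneurons.

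The labels were checked with Gbx2, the gene whose locus drives Cre and GFP. It stood at 28.7 and 55.5 CPM in the GFP-negative libraries (replicates 2 and 6, in this order throughout) and at 602 and 496 CPM in the GFP-positive ones (replicates 2 and 3), where CPM is the read count relative to the scaled library size. The amacrine markers Pax6, Calb2, Gad1 and 6 others summed to 3171 and 4929 CPM in the GFP-negative and 4500 and 3721 CPM in the GFP-positive libraries. Within that sum Calb2 was called higher in GFP-positive cells (log2 fold change 4.24) and Gad1 and Gad2, enzymes of GABA synthesis, lower (-3.62 and -3.10). Calb2 alone stood at 84.4 and 143 CPM against 2098 and 2195 CPM, so the GFP-positive sums depend largely on this gene. Tfap2a, Tfap2b and Slc32a1 were also lower in both GFP-positive libraries, but not called. Slc6a9 was higher in both, also not called, and Pax6 and Calb1 overlapped. Total counts were 41040667 to 44689917 per library. RNA of other cells was present: 12 rod photoreceptor markers, none at 0, summed to 8001 and 1953 CPM in GFP-negative libraries and to 9191 and 15142 CPM in GFP-positive ones. The sum of 7 ganglion cell markers, of which Pou4f2 was at 0 in GFP-positive replicate 3, was 225 and 264 CPM against 151 and 67.8 CPM. Most of that sum was Nefl (191 and 240 against 94.8 and 32.5 CPM), whereas Rbpms was higher in both GFP-positive libraries (10.1 and 7.35 against 28.9 and 26.0 CPM), as was Pou4f3.

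The exon sharing sets what a count in these rows can mean. In GENCODE mouse release 21 (GRCm38), each alpha gene shared 2860 to 2864 exonic bases with other alpha genes, and each gamma gene at least 2116 bases with other gamma genes. The counts of different alpha genes in GFP-positive replicate 3 ran from 0 for Pcdha1 to 880 for Pcdhac2, so reads from the shared exons had not been added to every isoform. The rows were therefore read as measures of each gene's own exon. Pcdhga10 has 0 unshared bases, because an antisense gene, Gm26672, covers its variable exon, and it was at 0 in all libraries, as was Gm42416, a read-through gene model across the clusters. Its 0 says nothing of its transcription. Pcdha4 has only 404 unshared bases and 0 to 8 counts per library. Levels of different isoforms were compared as CPM per kb of unshared exon, over the 56 genes with at least 1000 such bases.

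The name Pcdha11 stood on 2 rows. The first (ENSMUSG00000007440) begins 117 bases from the start that RefSeq gives for Pcdha10, and the second (ENSMUSG00000102206) begins 146 bases from that of Pcdha11. They are called the first and second Pcdha11 row here. The second has 1268 unshared bases and had 2 to 32 counts.

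All members together took 0.0632% to 0.152% of a library's counts. Beta isoforms made up the largest part of the summed CPM, 45.1% to 57.8% by library, gamma isoforms 29.9% to 42.5% and alpha isoforms 12.4% to 14.3%. These sums are not scaled to exon length. The median unshared exon was 3714 bases for beta, 2587 for gamma and 2475 for alpha. The parts therefore do not rank the clusters by number of transcripts. The sum over all members was 973 and 1741 CPM in the GFP-negative libraries, against 1116 and 575 CPM in the GFP-positive ones. The fractions overlapped, since GFP-positive replicate 2 was above GFP-negative replicate 2. The extremes were GFP-negative replicate 6, which had the lowest rod marker sum, and GFP-positive replicate 3, which had the highest. The same libraries were lowest and highest for cone (101 and 598 CPM), bipolar (429 and 1778 CPM) and Mueller glia markers (351 and 681 CPM). For ganglion cell markers they were highest and lowest (264 and 67.8 CPM). Not every marker followed its sum: Cngb3 (cone, 71.1 CPM) and Prkca (bipolar, 159 CPM) were highest in GFP-negative replicate 6. Of the Mueller glia markers only Rlbp1 and Slc1a3 followed their sum at both ends. Horizontal cell sums and endothelial and pericyte sums were highest in GFP-positive replicate 2. Astrocyte and microglia sums were highest in GFP-negative replicate 2. The part of RNA from these cells in the order of the protocadherin sums was not tested. In such bulk samples, fewer cells of a type and less RNA per cell cannot be told apart.

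Alpha isoforms summed to 139 and 239 CPM in the GFP-negative and 138 and 71.2 CPM in the GFP-positive libraries. The gap between the fractions in this sum was under 1 CPM, between GFP-negative and GFP-positive replicate 2. For the beta isoforms the sums were 468 and 912 against 503 and 332 CPM, and for the gamma isoforms 366 and 590 against 474 and 172 CPM. Both overlapped between the fractions. The log2 ratio of the fraction means was -0.85 for alpha, -0.72 for beta and -0.57 for gamma. Without GFP-negative replicate 6 the ratios were -0.41, -0.16 and -0.18, and without GFP-positive replicate 3 they were -0.45, -0.45 and -0.01, so the difference in totals rests largely on those libraries. The plot of summed levels shows these values beside the rod markers.

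**Figure D1:**
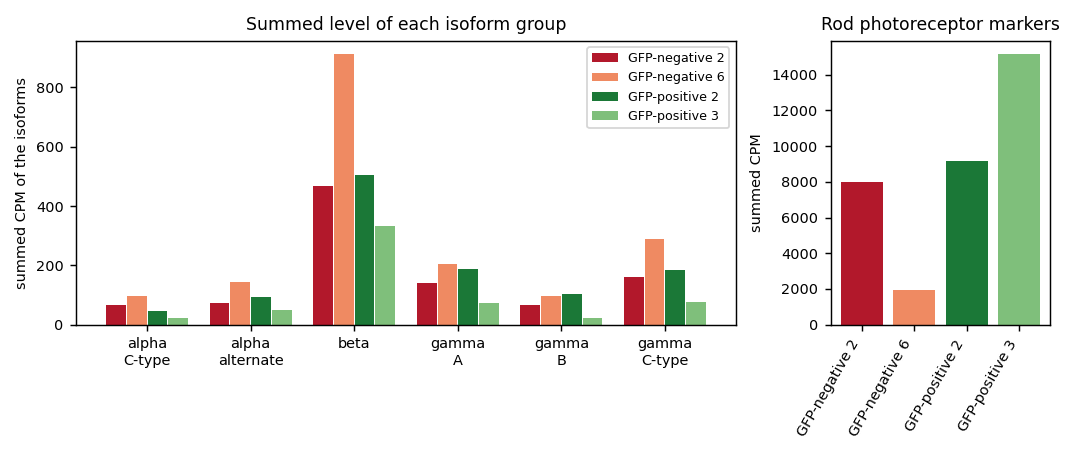
Left, summed CPM of the isoforms of each group in each library; right, summed CPM of 12 rod photoreceptor markers. Bars are single libraries, and both axes start at 0. GFP-negative replicate 6 had the highest beta sum (912 CPM) and the lowest rod marker sum (1953 CPM), and GFP-positive replicate 3 the lowest beta sum (332 CPM) and the highest rod marker sum (15142 CPM).

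The comparison of the fractions asks which genes distinguish the GFP-positive from the GFP-negative amacrine cells. No clustered protocadherin passed it, but a set of 55 would hold few calls at the share of all genes called. The absence of calls therefore does not set the members apart from other genes. Of the 55 members that passed the filter on low counts, 0 had an adjusted p under 0.05 in edgeR's quasi-likelihood test, against 198 of all 17940 genes tested (1.1%; 0 members were called higher, against 0.234% of all genes, and 0 lower, against 0.87%). At an unadjusted p under 0.05 edgeR gave 5 members (Pcdhac2, Pcdhb5, Pcdhb7, Pcdhb9 and Pcdhb12), against 12.6% of all genes. DESeq2 and limma-voom also called 0 members, against 3.08% and 0.73% of all genes. The DESeq2 share is over 27925 genes with a count, some without an adjusted p, and that of limma-voom over 17940 genes. They gave 9 and 8 members at an unadjusted p under 0.05. The share of all genes at that level was not computed for these tools, so these counts cannot be set against a background. The lowest adjusted p of a member was 0.249 in edgeR (Pcdhac2) and 0.0533 in DESeq2 (Pcdhb5). The median standard error of a member's log2 fold change was 0.59, and the smallest absolute log2 fold change among called genes was 1.72.

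Most fitted values of the members were below 0. The log2 fold change (GFP-positive minus GFP-negative) was negative for 44 of 55 members and for 47.6% of all genes, and its median was -0.64 over the members and 0.04 over all genes. Both GFP-positive libraries lay below both GFP-negative libraries for 16 members (21.3% of all genes did so), and above them for 1, Pcdhga12 (22.5% of all genes). GFP-positive replicate 3 was the lowest library for 42 members, against 31.8% of all genes, and GFP-negative replicate 6 the highest for 37, against 30.1%. Without GFP-negative replicate 6 the median over the members was -0.03 with 31 of 55 negative, and without GFP-positive replicate 3 it was -0.21 with 35 negative. The plot of fold changes shows every tested member with its standard error.

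**Figure D2:**
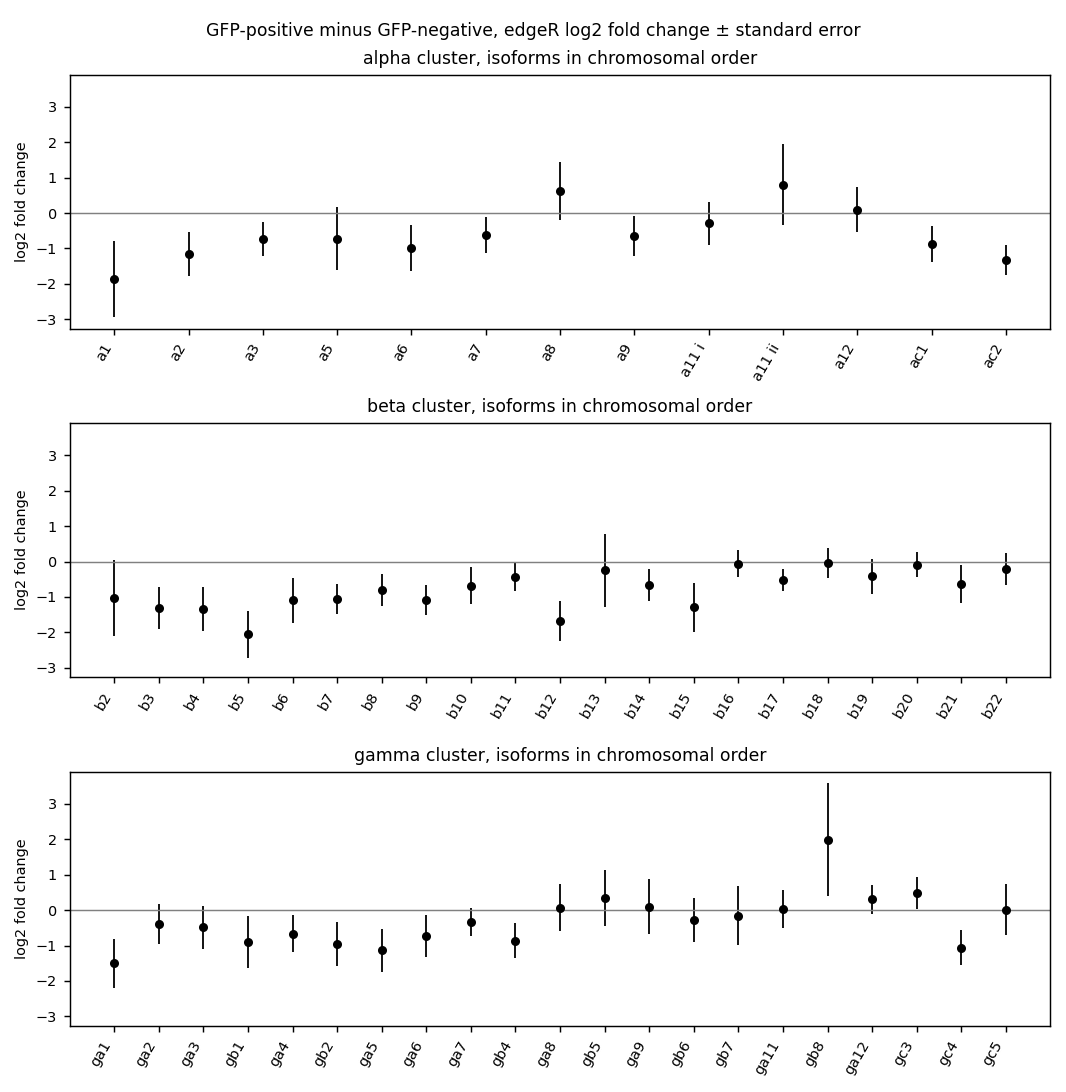
Log2 fold change of each tested isoform, GFP-positive minus GFP-negative, with bars of 1 standard error from edgeR, in chromosomal order within each cluster; a11 i and a11 ii are the first and second Pcdha11 row. Values ran from -2.05 (Pcdhb5) to 1.99 (Pcdhgb8), all 21 beta values were below 0, and no member passed an adjusted p of 0.05.

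The alpha cluster was led by Pcdhac2, a C-type isoform known for the tiling of serotonergic axons. It stood at 56.6 and 86.0 CPM in GFP-negative libraries and at 38.6 and 18.5 CPM in GFP-positive ones. The fractions did not overlap. Its log2 fold change was -1.32 ± 0.42 (SE; edgeR adjusted p = 0.249). The other C-type isoform, Pcdhac1, was lower throughout, at 9.78 and 9.50 CPM against 6.08 and 4.40 CPM, also without overlap (-0.88 ± 0.51, edgeR adjusted p = 0.530). Per kb of its own exon, Pcdhac2 averaged 23.6 ± 6.87 CPM (SD) in GFP-negative and 9.43 ± 4.70 in GFP-positive cells, and Pcdhac1 3.77 ± 0.08 and 2.05 ± 0.47.

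Alternate alpha isoforms were more even. The 3 with the highest level per kb were Pcdha7, Pcdha9 and Pcdha2. Pcdha7 stood at 11.6 and 23.1 CPM in the GFP-negative and 14.2 and 8.35 CPM in the GFP-positive libraries, which overlapped. Pcdha9 varied mostly within the GFP-negative fraction, at 7.41 and 23.2 CPM, and stood at 10.1 and 9.42 CPM in GFP-positive cells. Pcdha2 was at 13.0 and 20.97 against 11.9 and 3.302 CPM, so that GFP-positive replicate 3 stood apart from the other libraries. Pcdha1 was at 2.53 and 2.26 CPM in GFP-negative libraries, at 1.33 CPM in GFP-positive replicate 2 and at 0 counts in GFP-positive replicate 3. A count of 0 there allows up to 0.0886% of the alpha counts of that library, by counting error only. Its log2 fold change of -1.87 ± 1.07 was the second most negative of all members (edgeR adjusted p = 0.530).

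A few low alpha isoforms had positive values. Pcdha8 was at 2.58 and 0.670 CPM in GFP-negative and 2.65 and 2.50 CPM in GFP-positive libraries (0.62 ± 0.81, edgeR adjusted p = 0.812), where GFP-negative replicate 6 alone was low. The second Pcdha11 row, the lowest alpha isoform per kb, was at 0.550 and 0.0559 against 0.437 and 0.673 CPM, again with GFP-negative replicate 6 alone low. The library with the highest sum of alpha isoforms thus had the lowest level of Pcdha8 and of the second Pcdha11 row. Antisense genes overlap the exons of the second Pcdha11 row, Gm10545 by 2486 and Gm10544 by 852 bases, and Gm10545 also overlaps Pcdha12 by 531 bases.

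In the beta cluster, whose genes each hold a complete protein in 1 exon, all 21 tested members had negative log2 fold changes, with a median of -0.68. Pcdhb1 had no count in any library, which allows 0.0631 to 0.0838 CPM per library. The highest levels per kb belonged to Pcdhb9, Pcdhb7 and Pcdhb17. Pcdhb9 was at 53.6 and 125 CPM in GFP-negative and at 49.2 and 35.2 CPM in GFP-positive libraries (-1.08 ± 0.43, edgeR adjusted p = 0.344). Pcdhb7 followed the same order, at 62.6 and 114 against 55.4 and 28.7 CPM (-1.07 ± 0.42, edgeR adjusted p = 0.344). For both, the fractions did not overlap, but GFP-negative and GFP-positive replicate 2 differed by far less than the GFP-negative replicates did from each other.

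Pcdhb17 was the steadiest of the 3, at 63.4 and 96.6 against 53.7 and 57.7 CPM. Pcdhb20, next in level per kb, stood at 37.6 and 63.6 against 49.6 and 45.7 CPM, with overlap (log2 fold change -0.09). The largest negative values were those of Pcdhb5 and Pcdhb12. Pcdhb5 was at 8.65 and 26.1 CPM in GFP-negative and at 5.84 and 2.50 CPM in GFP-positive libraries, a log2 fold change of -2.05 ± 0.67 (edgeR adjusted p = 0.257). Over all the settings tried, its adjusted p did not pass in any. Pcdhb12 was at 9.51 and 20.1 against 5.58 and 3.68 CPM (-1.67 ± 0.56, edgeR adjusted p = 0.264); an antisense gene, Gm37446, covers part of its exon and leaves 1107 unshared bases. Pcdhb13 was the lowest beta isoform with counts, at 0.382 and 1.73 against 1.29 and 0.442 CPM.

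Gamma A and gamma B isoforms, the alternate isoforms of the gamma cluster, overlapped between the fractions in 13 of 18 tested members, against 56.2% of all genes. Per kb the highest were Pcdhga11, Pcdhga3 and Pcdhga2 in the A group and Pcdhgb6, Pcdhgb7 and Pcdhgb1 in the B group. Gm26672 overlaps Pcdhga11 by 1381 bases and leaves it 1256 unshared ones. In CPM not scaled to length, Pcdhga11 averaged below Pcdhga3 and Pcdhga2 in both fractions, so its rank depends on the length term. Pcdhgb6 was at 24.6 and 39.1 CPM in GFP-negative and at 42.7 and 9.72 CPM in GFP-positive libraries, so that the GFP-positive replicates held both the highest and the lowest value. The same held for Pcdhga11, at 11.7 and 17.4 against 21.8 and 7.95 CPM, for Pcdhgb7, at 10.3 and 15.4 against 21.2 and 1.93 CPM, and for Pcdhga3, at 23.7 and 27.9 against 30.1 and 6.65 CPM. Pcdhga2 and Pcdhgb1 were also lowest in GFP-positive replicate 3, at 8.56 and 1.66 CPM, but highest in GFP-negative replicate 6, at 31.0 and 13.0 CPM.

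The sum over gamma B isoforms showed this spread most clearly: 65.5 and 97.1 CPM in the GFP-negative libraries against 103 and 22.8 CPM in the GFP-positive ones. The GFP-positive replicates thus differed 4.50-fold from each other, more than in any other isoform group, while the GFP-negative ones differed 1.48-fold. Pcdhgb8, which GENCODE annotates as a polymorphic pseudogene, was read 0 and 22 times in GFP-negative replicates, against 104 and 2 times in GFP-positive ones. Its log2 fold change of 1.99 ± 1.59, the highest of all members, therefore rests on 1 library (edgeR adjusted p = 0.660). Pcdhga9, the lowest A isoform per kb, was at 6.05 and 8.57 against 13.6 and 2.04 CPM.

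Pcdhga12, the last alternate isoform before the C-type genes, was the only tested member with both GFP-positive libraries above both GFP-negative ones, at 10.9 and 14.0 against 16.1 and 14.6 CPM (log2 fold change 0.31 ± 0.42, edgeR adjusted p = 0.819).

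Among the gamma C-type isoforms, Pcdhgc4 had the highest level per kb of all clustered protocadherins, an average of 42.6 CPM per kb over the libraries against 21.6 for the next, Pcdhb9. Pcdhgc4 is the gamma isoform known to be needed for the survival of interneurons. It was at 136 and 265 CPM in GFP-negative and at 137 and 55.3 CPM in GFP-positive libraries. The values of replicate 2 of both fractions were almost equal, and the fractions overlapped (-1.06 ± 0.49, edgeR adjusted p = 0.416). Pcdhgc3, known to promote dendrite branching through Axin1, was at 21.5 and 23.5 against 44.4 and 18.3 CPM (0.48 ± 0.45, edgeR adjusted p = 0.725). An antisense gene, BC037039, overlaps the Pcdhgc3 exon by 1559 bases. It had 93 and 65 counts in GFP-negative against 188 and 238 in GFP-positive libraries (edgeR adjusted p = 0.515). With no strand setting stated, its reads cannot be told apart from those of Pcdhgc3 where the exons overlap. The level per kb and the share of Pcdhgc3 take reads in that overlap as counted for neither gene, which was not established. Pcdhgc5, known to associate with GABA-A receptors, was low and level, at 2.58 and 1.84 against 1.88 and 2.61 CPM. The plot of levels per kb shows the distance between Pcdhgc4 and Pcdhgc5.

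**Figure D3:**
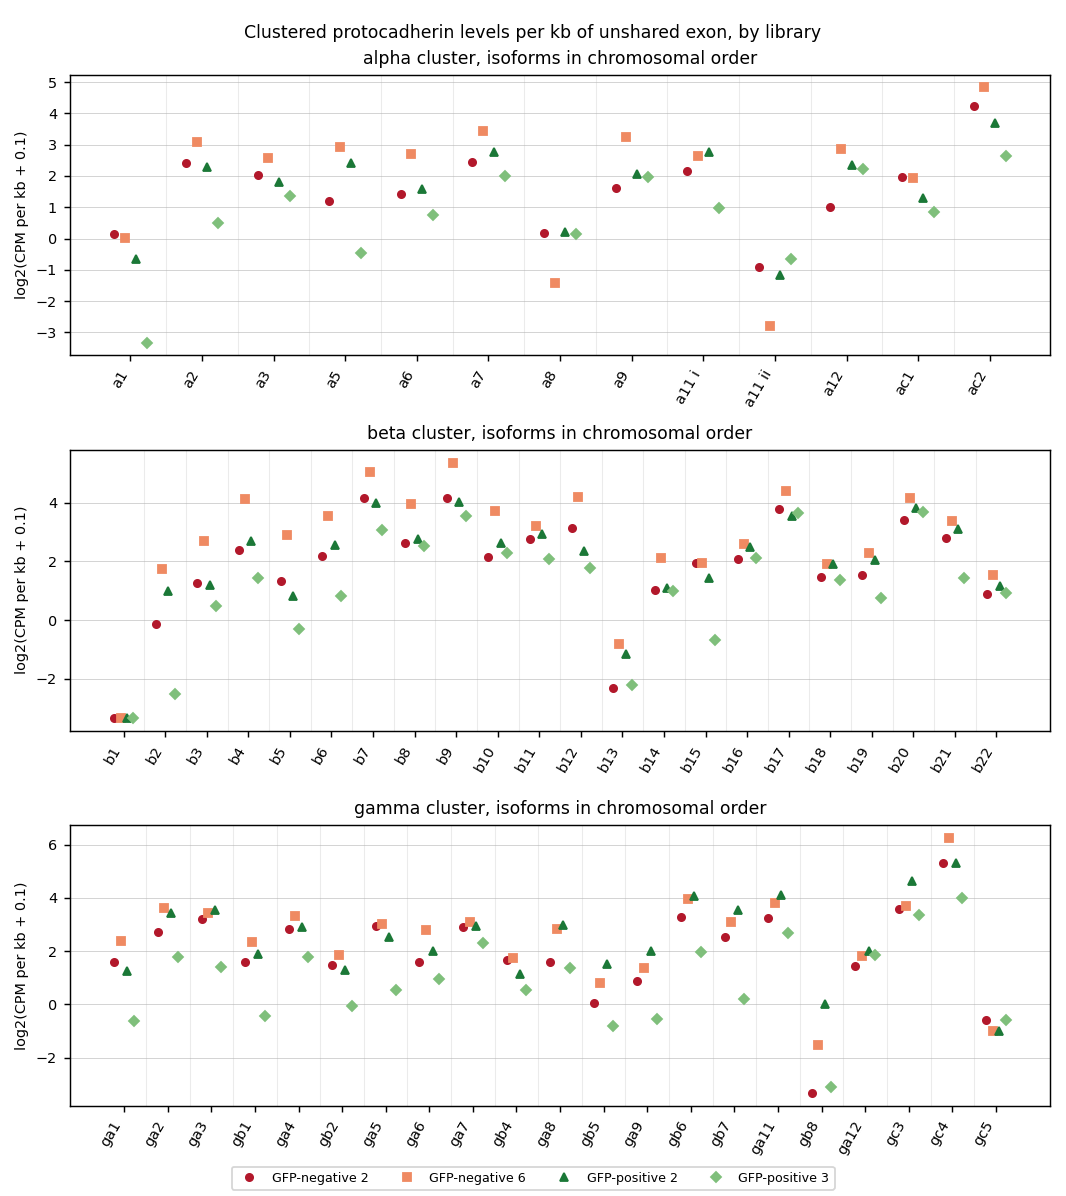
Level of each isoform in each library as log2 of CPM per kb of unshared exon plus 0.1, in chromosomal order; a11 i and a11 ii are the first and second Pcdha11 row, and Pcdha4 and Pcdhga10 are left out for lack of unshared exon. Each point is 1 library. Pcdhgc4, Pcdhb9, Pcdhb7 and Pcdhac2 stood highest, Pcdhb1 was at 0 in all libraries, and GFP-positive replicate 3 (light green) was the lowest library for 42 of 55 tested members.

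Isoform use was described as the share of each isoform in its cluster, in reads per kb, which removes the difference in totals between libraries. In the alpha cluster Pcdhac2 held 34.8% and 29.9% in the GFP-negative libraries against 22.9% and 20.7% in the GFP-positive ones. Its share was thus 32.4 ± 3.44% (SD) against 21.8 ± 1.51%, without overlap. As a share of the raw alpha counts it was 40.8% (95% Wilson interval 39.6% to 42.1%) and 36.0% (35.0% to 37.0%) against 28.0% (26.9% to 29.1%) and 26.0% (24.5% to 27.5%); the intervals cover counting error only. The share of Pcdha12 moved the other way, at 3.59% and 7.50% against 8.91% and 15.5%, and Pcdha7 held 10.1% and 11.4% against 11.9% and 13.2%. The level of Pcdha12 overlapped between the fractions, at 3.75 and 13.8 against 9.67 and 8.90 CPM (log2 fold change 0.09). Its higher share is therefore not a higher level. Pcdhac2 was the leading alpha isoform in every library.

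In the gamma cluster the shares of Pcdhgc4 and Pcdhgc3 differed in opposite directions. Pcdhgc4 held 28.6% and 35.5% in GFP-negative and 21.1% and 24.3% in GFP-positive libraries, and Pcdhgc3 held 8.65% and 6.03% against 13.1% and 15.3%. For neither did the fractions overlap. Of 21 gamma isoforms, 5 had a lower share in both GFP-positive libraries and 4 a higher one. As shares of raw gamma counts, Pcdhgc3 was at 5.88% (95% Wilson interval 5.52% to 6.26%) and 3.99% (3.73% to 4.26%) against 9.37% (8.98% to 9.76%) and 10.6% (9.98% to 11.3%). The C-type isoforms as a whole held 39.7 ± 2.83% and 37.4 ± 4.27% of the gamma cluster, with overlap. In the alpha cluster the C-type share was 37.9 ± 5.70% against 26.8 ± 0.41%.

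No beta isoform dominated as Pcdhgc4 and Pcdhac2 did. The leading beta isoform was Pcdhb7 in GFP-negative replicate 2, Pcdhb9 in GFP-negative replicate 6 and GFP-positive replicate 2, and Pcdhb20 in GFP-positive replicate 3. Pcdhb9 held 14.1% and 16.4% of the cluster against 12.5% and 13.7%. Pcdhb20 held 8.48% and 7.16% against 10.8% and 15.2%, and Pcdhb12 6.90% and 7.27% against 3.90% and 3.94%, each without overlap.

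Over the clusters, 12 of 55 isoforms with counts (21.8%) had a lower share in both GFP-positive than in both GFP-negative libraries and 10 (18.2%) a higher one. For the level of a gene, the same separation held for 21.3% (lower) and 22.5% (higher) of all genes. The counts over isoforms are not independent, because the shares add up to 100% in a cluster. An exact permutation test of any single share with 2 against 2 libraries cannot go below p = 0.333, two-sided, and none of these share differences was tested. The plot of isoform use shows the shares of both fractions.

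**Figure D4:**
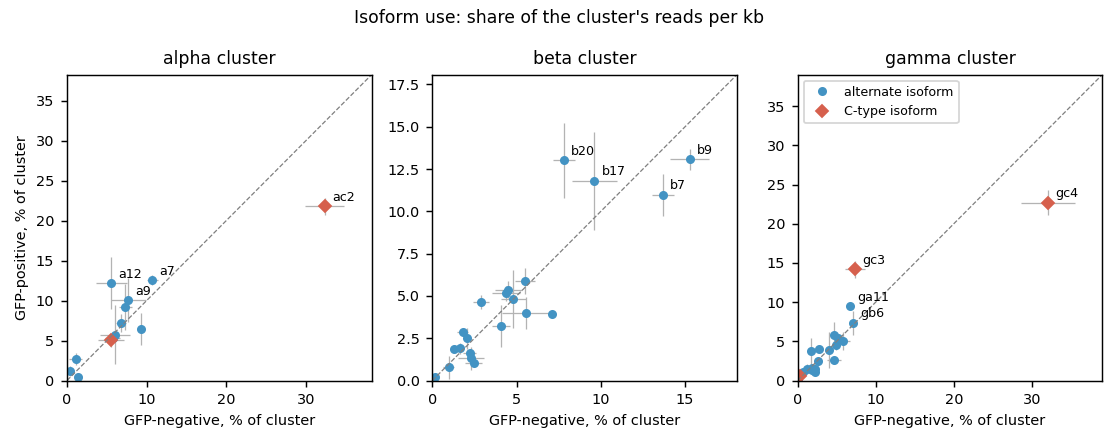
Mean share of each isoform in its cluster's reads per kb, GFP-negative on the horizontal and GFP-positive on the vertical axis, in percent; lines span the 2 libraries of a fraction and the dashed line marks equal shares. Pcdhac2 (32.4% against 21.8%) and Pcdhgc4 (32.1% against 22.7%) lie below the line and Pcdhgc3 (7.34% against 14.2%) above it.

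The breadth of isoform use was also compared, with no test. The effective number of isoforms, the exponential of the Shannon entropy of the shares, was 8.70 ± 0.06 in GFP-negative and 9.75 ± 0.24 in GFP-positive cells for alpha, of 13 isoforms measured. For beta it was 15.3 ± 0.05 and 14.97 ± 1.69, of 22, and for gamma 12.1 ± 1.00 and 13.1 ± 0.95, of 21. Each sample pooled 750 to 2500 cells, so these numbers do not describe single neurons. The ranking of isoforms was alike in all libraries: the Spearman correlation of shares between pairs of libraries, across 21 isoforms, was 0.79 to 0.94 for beta and 0.82 to 0.94 for gamma. Across 13 alpha isoforms it was 0.66 to 0.82. Pairs from the same fraction (0.92 and 0.88 for beta, 0.94 and 0.82 for gamma, 0.73 and 0.69 for alpha) lay within the range of pairs from different fractions or within 0.02 of it. Isoforms of a pair share the same libraries and are not independent.

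Among the beta genes and the alternate alpha and gamma genes, the log2 ratio of the fractions was more negative in the 5′ part; the split used to show this was chosen after the values were seen. The first 11 beta genes, Pcdhb1 to Pcdhb11, summed to 235 and 538 CPM in GFP-negative and 243 and 139 CPM in GFP-positive libraries, a log2 ratio of means of -1.02. The last 11, Pcdhb12 to Pcdhb22, summed to 234 and 374 against 260 and 194 CPM, a log2 ratio of -0.42. For Pcdha1 to Pcdha6 and the later alternate alpha genes the log2 ratios were -0.94 and -0.36, and for the first 9 and last 10 gamma A and B genes -0.67 and -0.08. The C-type genes at the 3′ ends did not follow this order: their log2 ratios were -1.26 in alpha and -0.80 in gamma. For beta, a slope also appeared between replicates of a fraction. Across 21 beta isoforms, position and the log2 ratio of GFP-negative replicate 6 over replicate 2 had a Spearman correlation of -0.71, as large as the 0.69 for GFP-positive replicate 2 over GFP-negative replicate 6. Over pairs from different fractions, GFP-positive over GFP-negative, it ran from 0.15, for replicate 2 of both, to 0.69. For GFP-positive replicate 3 over replicate 2 it was 0.34. In the alpha and gamma clusters, C-type genes included, the correlation between the GFP-negative replicates was -0.05 and -0.19. Between the GFP-positive replicates it was 0.28 and 0.18. Over pairs from different fractions it ran from 0.04 to 0.41 in alpha and from 0.26 to 0.51 in gamma, lowest for replicate 2 of both.

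No gene listed for promoter choice in the clusters differed past the threshold. Of 21 genes for genome organisation and DNA methylation, 0 passed edgeR's adjusted p of 0.05, against 1.1% of all genes, and 1 had an unadjusted p under 0.05, against 12.6%, so a list of this size would hold few calls at the background share. Their median log2 fold change was 0.18. Ctcf, whose protein binds the isoform promoters and their enhancers, was at 132 and 108 CPM in GFP-negative and 129 and 154 CPM in GFP-positive libraries. The cohesin gene Rad21 was at 87.7 and 90.1 against 78.6 and 122 CPM, and Wapl, which releases cohesin, at 99.8 and 61.8 against 102 and 106 CPM. Smchd1, a chromatin protein that represses the clusters, was at 86.9 and 72.5 against 112 and 76.3 CPM, and Setdb1, a histone methyltransferase, at 85.6 and 74.8 against 65.7 and 58.7 CPM. Dnmt3b, the DNA methyltransferase of the isoform promoters, was low, at 5.45 and 6.17 against 6.65 and 1.87 CPM. The standard errors of these log2 fold changes were 0.29 to 0.33, and 0.69 for Dnmt3b.

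Of 18 signalling partners and processing enzymes, 0 passed in edgeR (1.1% of all genes did) and 1 had an unadjusted p under 0.05 (12.6% of all genes). Of these 18, 16 had negative log2 fold changes, against 47.6% of all genes, and the median was -0.38. Ptk2, the focal adhesion kinase that the cytoplasmic domains inhibit, was level at 115 and 106 against 117 and 104 CPM. Its relative Ptk2b was low, at 1.86 and 3.24 against 0.941 and 0.694 CPM (-1.63 ± 0.83, edgeR adjusted p = 0.473). Fyn, a kinase that binds alpha protocadherins, stood at 342 and 463 against 362 and 221 CPM. The lowest library was again GFP-positive replicate 3 and the highest GFP-negative replicate 6, as in the protocadherin sums. These libraries also had the highest and the lowest sums of rod, cone, bipolar and Mueller glia markers. The part of RNA from such cells in these values was not tested.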

How the data were processed

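The authors deposited unnormalised read counts for each Ensembl gene; totals differed between libraries. Libraries were made with a SMART-Seq ultra low input kit, per the labels' protocols; the submitters' processing notes list Trimmomatic, STAR 2.7.3a, MultiQC, limma and GRCm38. How reads were assigned to genes, including strand and reads shared by genes, is not stated there. A second deposited table, the same counts scaled, was not used. R 4.3.3 and edgeR 4.0.16 were used to test the counts, after scaling by TMM: filterByExpr (minimum count 10, minimum total 15), glmQLFit (robust, legacy = FALSE) and glmQLFTest, GFP-positive minus GFP-negative, over 17940 of 55471 genes, with Benjamini-Hochberg adjustment; genes with an adjusted p under 0.05 were called. Each standard error was the log2 fold change, without sign, divided by √F. Steps were tested on simulated data. Unshared exon was counted against all GENCODE release 21 genes on either strand; the minimum of 1000 bases was set after the lengths were seen. A count of 3 is the floor for a 0. Alternatives were other scalings, filters, DESeq2 1.42.0, limma-voom 3.58.1, leaving out each library, and other length terms. Members and lists were chosen with earlier results of these data known. Named isoforms are all C-type genes, the 3 highest and the lowest per kb in each alternate group, the 3 largest fold changes each way and genes at 0 in a fraction; Pcdha4, Pcdha12, Pcdhb13, Pcdhb20 and Pcdhga12 were added after their values were seen. P-values of edgeR rest on the spread between 2 samples per fraction, moderated by the spread of all genes. The median prior degrees of freedom were 6.59, against 2 residual ones.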

Additional observations from a re-analysis of the deposited data

How the results depend on the processing

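The count of members called was 0 in each direction with library-size, upper-quartile and RLE scaling, without or with a stricter filter, DESeq2, limma-voom, a legacy quasi-likelihood fit (added after seeing the data) and without each library. Over all genes, 198 were called in the reported fit, 859 with DESeq2, 131 with limma-voom, 106 without a filter, 48 in the legacy fit, 336 and 1 without GFP-negative replicate 2 or 6, and 108 and 5 without GFP-positive replicate 2 or 3, where the lone library of a fraction is assumed to vary like the others. The members' median log2 fold change ran from -1.40 (without GFP-positive replicate 2) to -0.03 (without GFP-negative replicate 6). Cluster log2 ratios without 1 library ran from -1.41 to -0.41 for alpha, -1.13 to -0.16 for beta and -1.48 to -0.01 for gamma. Library-size scaling moved the median of all genes to 0.21 and that of the members to -0.46. As a share of raw counts, GFP-negative and GFP-positive means were 38.4% and 27.0% for Pcdhac2, 12.6% and 10.2% for Pcdhb9, and 40.99% and 30.5% for Pcdhgc4; per kb of whole exonic length they were 36.2% and 25.1% for Pcdhac2 and 38.5% and 28.8% for Pcdhgc4. These moved because the length term changed; dropping the minimum of unshared bases (added after seeing the data) moved none of them beyond the spread. Without 1 library the per-kb shares were 29.9% to 34.8% and 20.7% to 22.9% for Pcdhac2, 14.1% to 16.4% and 12.5% to 13.7% for Pcdhb9, and 28.6% to 35.5% and 21.1% to 24.3% for Pcdhgc4. No paired analysis was possible because the fractions share 1 replicate number only, which leaves no residual degrees of freedom.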

Other observations

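Antisense noncoding genes of the alpha cluster were counted beside it. Gm10544, which overlaps exons of the second Pcdha11 row by 852 bases, was read 71 and 75 times in GFP-negative replicates. In GFP-positive ones it was read 299 and 686 times. Gm10545, which overlaps the exons of the second Pcdha11 row and of Pcdha12, had 0 and 2 counts against 43 and 38. In edgeR's test the adjusted p was 0.164 for Gm10544 and 0.285 for Gm10545. Both were singled out after their values were seen, and with no strand setting stated, their reads cannot be told apart from those of the alpha genes where exons overlap. The levels per kb of those alpha genes take reads in the overlaps as counted for neither gene, which was not established.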
